A study of Homo sapiens with 12 samples.

Results

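The Eph type A receptors analysed here were EPHA1, EPHA2, EPHA3, EPHA4, EPHA5, EPHA6, EPHA7, EPHA8 and EPHA10, 9 of the 25718 genes listed in the count files. They were taken by gene symbol, and a gene with several transcripts was represented by its transcript with the highest mean count. All 9 were listed, and 6 had a mean above 10 counts over the 12 samples and entered the test. RNA was sequenced from cultures of H9, a widely used line of human embryonic stem cells, after neural induction and patterning towards the ventral midbrain. Every culture had been infected, at an MOI of 50, with a doxycycline-regulated lentiviral vector for miR-10a or miR-10b. The 4 groups of 3 samples were miR-10a control and miR-10b control, which received no doxycycline, and miR-10a dox and miR-10b dox, which received it from day 11. All were harvested at day 14. The experiment asked which transcripts respond to a short pulse of miR-10, a microRNA of the hindbrain and spinal cord, in cells of a region that lacks it. The paper describes a GFP reporter in these vectors. These samples hold no culture with doxycycline and another vector, so that the effects of doxycycline, of GFP and of miR-10 cannot be told apart. The cells were expanded on mouse feeder cells before differentiation, no cloning of the infected cells is described, and the methods describe each group as done in 3 replicates without saying how separate these were from one another. The p-values therefore measure the spread between these samples, part of which may be technical.

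Eph receptors are the largest family of receptor tyrosine kinases. Type A receptors bind ephrin-A ligands, which are tied to the membrane of the neighbouring cell by a lipid anchor, and contact between the cells signals into both of them, mostly causing repulsion or detachment. In the developing brain they set boundaries between regions and guide axons, for example in the map that the retina projects onto the midbrain. A microRNA binds transcripts through bases 2 to 8 of its sequence, the seed, mostly in the 3′UTR, the part of the transcript after the stop codon, and usually lowers their level.

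Which of the receptors could be measured depended on their transcripts. The files count reads on 21 RefSeq transcripts of the 9 genes. EPHA1, EPHA2 and EPHA4 have 1 transcript each, and the other 6 genes have several. The counts appear to leave out reads that several transcripts of a gene share. Over all genes, those with 1 transcript held 92.8% of the counts. GAPDH, a housekeeping gene with 4 transcripts, had a mean of 50.9 counts summed over them. EPHA5, with 5 transcripts, had 3 to 17 counts per sample on NM_001281767 and 0 on the other 4 in all 12 samples. EPHA7 had 19 to 34 counts on the short transcript NM_001288630, and 0 or 1 on the longer NM_004440. EPHA3 had 826 to 1194 counts on NM_005233 and at most 3 on NM_182644. EPHA8 had 117 to 185 counts on NM_020526, which held 89.6% of the reads counted on the gene, and EPHA10 had 67 to 99 on NM_001099439. A low count for a gene with several transcripts is thus not a measure of low expression. If shared reads were left out, the values of EPHA3, EPHA5, EPHA6, EPHA7, EPHA8 and EPHA10 describe only the part that 1 transcript holds alone. The plot of counts by transcript shows the reads that were counted, not those left out.

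**Figure D1:**
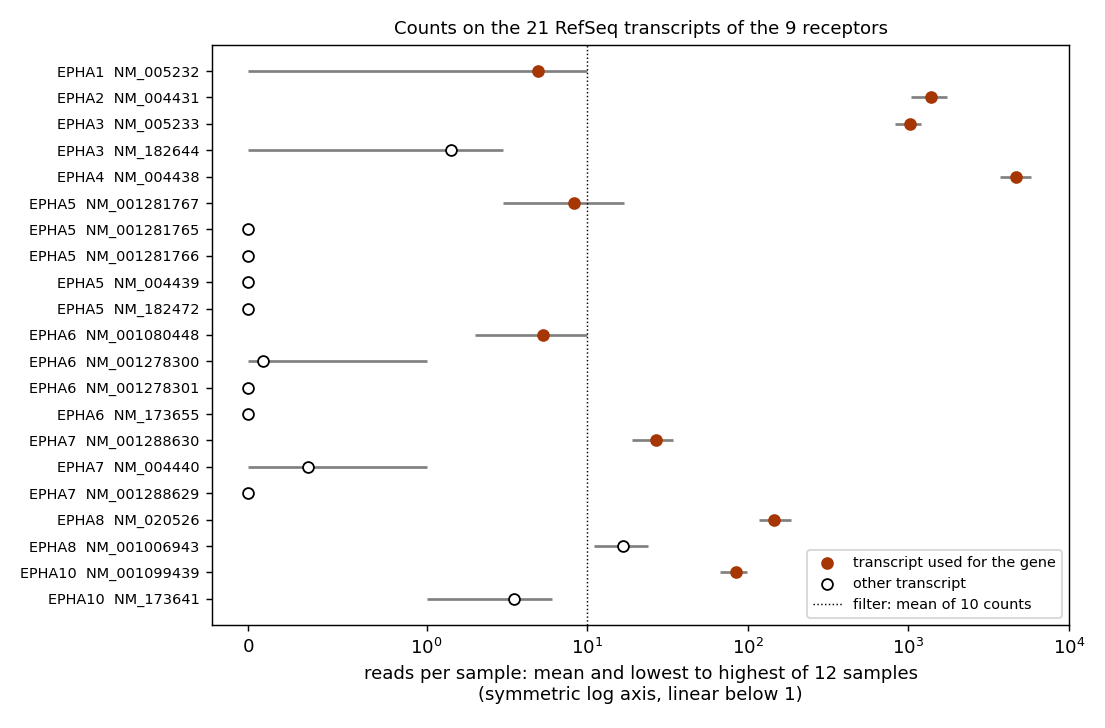
Each row is 1 of the 21 RefSeq transcripts of the 9 receptors, and the horizontal axis is the number of reads per sample on a symmetric log scale. Points are means and grey lines run from the lowest to the highest of 12 samples. EPHA2, EPHA3 and EPHA4 had at least 826 reads in every sample, whereas EPHA1, EPHA5 and EPHA6 lie left of the dotted line at a mean of 10 counts.

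The longest 3′UTR that GENCODE 44 annotates on GRCh37 holds a match to the seed of miR-10 in 7 of the 9 receptors. The microRNA is printed first, with its seed in capitals, from the RefSeq microRNA table (GRCh38.p14). Below it stand the best matches of the tested receptors, as the last bases of 30-base stretches of the transcript written 5′ to 3′, with the matching bases in capitals. They are shown because these receptors differ in the kind of match and in their values below. Matches were searched on the transcript strand as ACAGGGTA (8mer), ACAGGGT without the final A (7mer-m8), CAGGGTA without the first A (7mer-A1) and CAGGGT with neither (6mer), each site being counted once as its longest kind.
hsa-miR-10a-5p: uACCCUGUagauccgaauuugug
EPHA2, 8mer: ggcttggcccagcgccaagtaaACAGGGTA
EPHA4, 7mer-m8: caataaatatttattacattctgACAGGGT
EPHA8, 7mer-m8: ctcaccgctgcttcaacaggaaaACAGGGT
EPHA10, 7mer-A1: tgtgttggcaggacttcggtgtcCAGGGTA

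The EPHA2 match lies at chr1:16451320-16451327 on the minus strand, 383 bases into a 3′UTR of 878 bases, and is the only match there. EPHA2 itself spans chr1:16450832-16482564. The EPHA4 match lies at chr2:222283697-222283703 on the minus strand in a 3′UTR of 3345 bases, which also holds 2 6mers. The EPHA4 gene spans chr2:222282747-222438922, and a long noncoding RNA overlaps its exons on the other strand. The EPHA8 match lies at chr1:22928983-22928989 on the plus strand, and that 3′UTR also holds a 7mer-A1 and 2 6mers. The EPHA10 match lies at chr1:38181925-38181931 on the minus strand, with 2 6mers in the same 3′UTR. EPHA5 and EPHA6 each have a 7mer-m8 and EPHA1 has a 6mer, whereas EPHA3 and EPHA7 have no match. The searched 3′UTR of EPHA6 (12831 bases) and EPHA7 (3406 bases) is longer than the whole counted transcript (3677 and 1920 bases). For these genes the matches were thus searched on another transcript than the one counted. Among tested genes, 9260 have an annotated 3′UTR, of which 40.7% hold a match of some kind, 2.59% an 8mer and 13.7% a 7mer-m8 as the best kind. EPHA1, EPHA5 and EPHA6 are not among these genes. The median 3′UTR of the 9260 was 1553 bases, against 878 for EPHA2, 3345 for EPHA4, 1854 for EPHA8 and 2396 for EPHA10. The shares were not adjusted for length. A match is a run of letters and was not tested as a binding site.

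The total count was between 10545487 and 14165426 per sample, higher in every control sample than in any doxycycline sample of the same vector, and 3 counts corresponded to 0.212 to 0.284 CPM (reads per 1000000 counted in that sample). The MIR10A precursor had 7502 to 8801 counts in the miR-10a dox samples and 8 to 17 in their controls, and MIR10B had 29615 to 31908 in the miR-10b dox samples and 39 to 56 in theirs. Replicate 2 of miR-10b dox differed more from its partners than other replicates did (chi-square per degree of freedom 3.17 and 4.11, against 1.22 to 1.93 in the other pairs). Of the markers, 5 of 6 neural progenitor genes and 7 of 9 ventral midbrain and floor plate genes had a mean above 10 counts, LMX1B being listed at 0 in every sample. Markers of neural crest had summed levels of 0.601 to 2.08 CPM, none with a mean above 10 counts. Those of endothelium, a known site of EPHA2, summed to 4.91 to 7.28 CPM, and 2 of the 4 had a mean above 10 counts.

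In the cultures without doxycycline, EPHA4 had the highest level of the 3 receptors with 1 transcript. EPHA4 is unusual among type A receptors in that it also binds ephrin-B ligands. Its level was 420.1, 409.8 and 424.4 CPM in the 3 miR-10a control samples and 357.4, 357.5 and 368.0 CPM in the miR-10b control samples. Levels of different genes were compared only per kilobase of transcript and only for genes with 1 transcript. On this scale EPHA4 had 65.9 ± 1.18 CPM per kilobase (SD, n = 3) in the miR-10a controls and 56.9 ± 0.962 in the miR-10b controls. EPHA2, a receptor best known from epithelia, vessels and tumours, followed with 30.9 ± 0.579 and 28.8 ± 0.990 CPM per kilobase. EPHA1 had 0.0688 ± 0.0719 and 0.174 ± 0.0559 CPM per kilobase, that is 0 to 10 counts per sample. Exons of EPHA1 overlap those of ZYX on the other strand, and whether the counting used the strand is not given in the sources used here. The values of EPHA4, EPHA2 and EPHA1 did not overlap in any group. The ephrin-A ligands with 1 transcript lay within the same range. In the miR-10a controls EFNA2 had 33.9 ± 1.40 CPM per kilobase, EFNA5 29.7 ± 1.19 and EFNA3 12.2 ± 0.159. EPHA2 and EFNA5 overlapped there, with 30.5 to 31.6 and 29.0 to 31.1 CPM per kilobase.

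**Figure D2:**
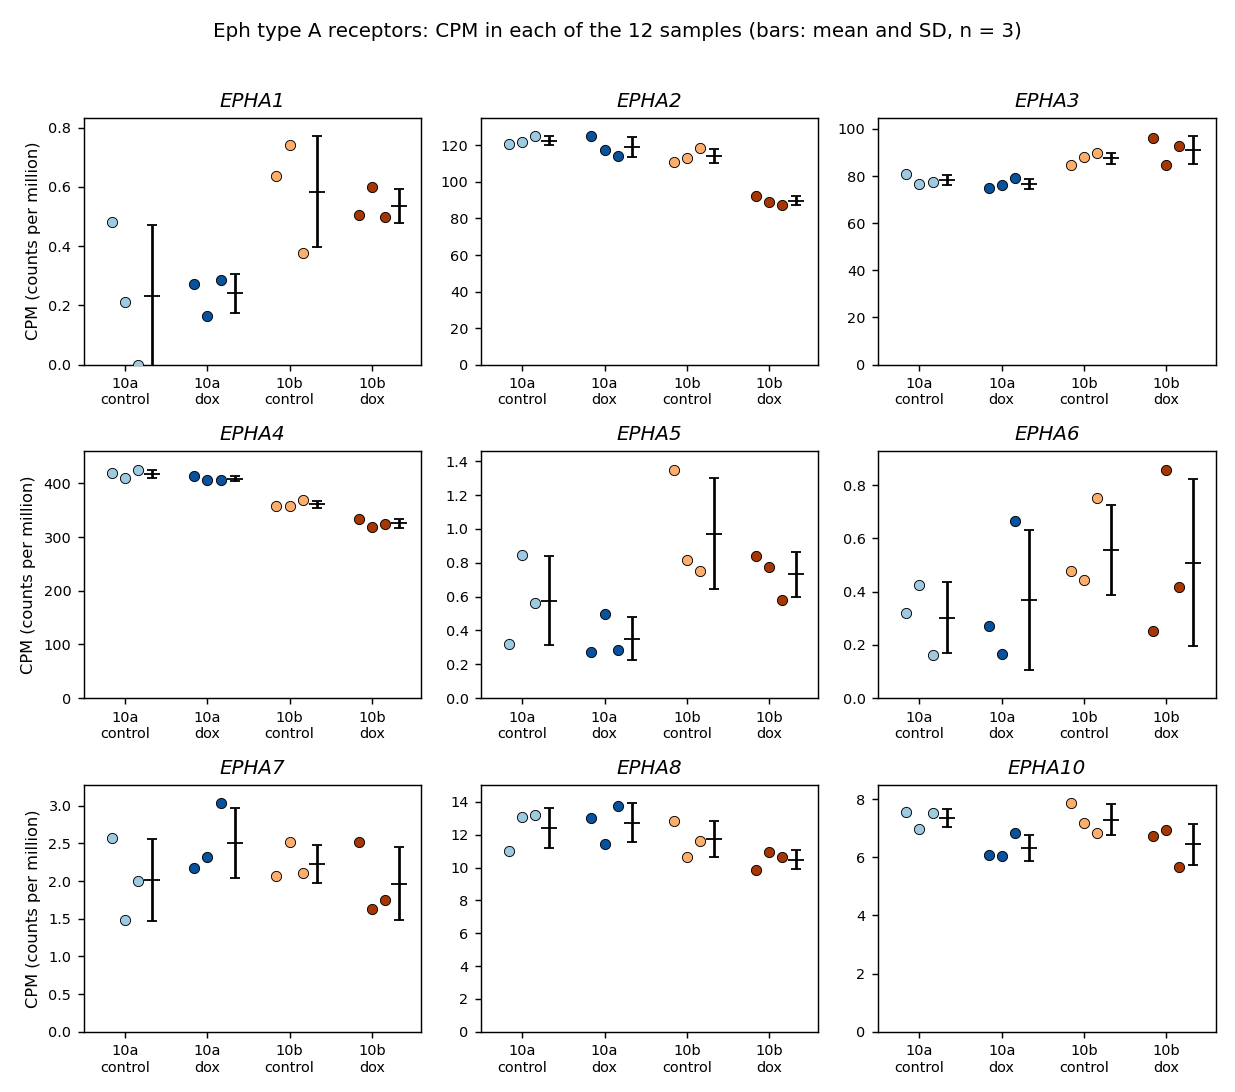
One panel for each receptor shows the CPM (vertical axis from 0, a scale of its own in each panel) in each of the 12 samples, with the mean and SD of each group of 3 beside the points. EPHA2 in miR-10b dox, at 87.5 to 92.4 CPM, sits below all 9 other samples, and EPHA4 is lower with the miR-10b vector than with the miR-10a vector.

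Induction of miR-10b was accompanied by lower EPHA2 and EPHA4. EPHA2 had 110.8, 112.9 and 118.4 CPM in the miR-10b control samples and 92.4, 89.2 and 87.5 CPM with doxycycline. Every doxycycline sample was thus below every control sample. The mean fell from 114.0 ± 3.92 to 89.7 ± 2.49 CPM (SD, n = 3 each), a change of -21.4% and a log2 fold change of -0.35 (standard error 0.0438, edgeR adjusted p = 2.73e-07). EPHA4 had 333.9, 318.3 and 324.5 CPM with doxycycline, again below all of its controls. Its mean fell from 361.0 ± 6.11 to 325.6 ± 7.87 CPM (SD, n = 3 each), a change of -9.80% and a log2 fold change of -0.15 (standard error 0.0320, edgeR adjusted p = 0.000950). These were the 2 receptors called among the 6 tested. Of all 11451 tested genes, 15.3% were called in this comparison, 7.15% as lower, and in 12.3% every doxycycline sample lay below every control sample. EPHA2 ranked 113th by p among all of them. Without replicate 2 of miR-10b dox, the log2 fold changes were -0.34 for EPHA2 (edgeR adjusted p = 1.39e-07) and -0.13 for EPHA4 (edgeR adjusted p = 0.00242).

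The other tested receptors did not pass the threshold with miR-10b. EPHA8, known from the embryonic midbrain, had 12.9, 10.7 and 11.6 CPM in the controls and 9.84, 11.0 and 10.6 CPM with doxycycline. These ranges overlapped, and the log2 fold change was -0.16 (standard error 0.109, edgeR adjusted p = 0.369). EPHA10, whose kinase domain is inactive, had 7.30 ± 0.522 and 6.44 ± 0.694 CPM (SD, n = 3 each), a log2 fold change of -0.18 (standard error 0.127, edgeR adjusted p = 0.390). EPHA7, counted on the short transcript NM_001288630, had 2.23 ± 0.251 and 1.97 ± 0.486 CPM, with a log2 fold change of -0.18 and a standard error of 0.238. EPHA3, which with EPHA5 takes part in mapping retinal axons, was the only tested receptor above 0, at 87.5 ± 2.46 and 91.1 ± 5.87 CPM (log2 fold change 0.06, standard error 0.0471, edgeR adjusted p = 0.458). The median log2 fold change of the 6 tested receptors was -0.17, beside 0.02 for all tested genes, with 5 of the 6 below 0, as were 5105 of the 11451 tested genes. Without 1 sample the uncalled values ran from -0.40 to -0.07 for EPHA7, -0.23 to -0.09 for EPHA10 and -0.22 to -0.09 for EPHA8. The 95% intervals of the uncalled receptors were wide for those with few counts, from -0.65 to 0.29 for EPHA7, and narrow for EPHA3, from -0.03 to 0.15.

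Cell type markers moved in the same comparison. In miR-10b dox, 2 of the 4 tested mesenchyme markers were lower (COL1A1, log2 fold change -0.60, and COL3A1, -0.21), and the summed level of the 5 mesenchyme markers was 200.9 to 215.6 CPM against 249.8 to 275.4 CPM in the controls. DCN was at 0 or 1 count. The 6 neuron markers summed to 1465 to 1506 CPM against 1256 to 1330 CPM, with MAP2 (0.28) and NEFL (0.16) higher among 4 tested. CORIN, which marks the floor plate, was lower (-0.77), the only 1 called of 7 tested floor plate and midbrain markers. That list summed to 1303 to 1363 CPM against 1355 to 1379 CPM in the controls, which overlapped. Of 5 tested progenitor markers, SOX3 (-0.40) and NES (-0.14) were lower. Of 2 tested pluripotency markers, LIN28A was lower (-0.34), and the paper names it as a miR-10 target lowered by both microRNAs. The endothelial markers summed to 4.91 to 6.01 CPM with doxycycline and 5.11 to 6.23 CPM without it. In these bulk samples, fewer cells with a receptor and less of its RNA in each cell cannot be told apart, and the part of these markers in the EPHA2 and EPHA4 results was not tested.

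**Figure D3:**
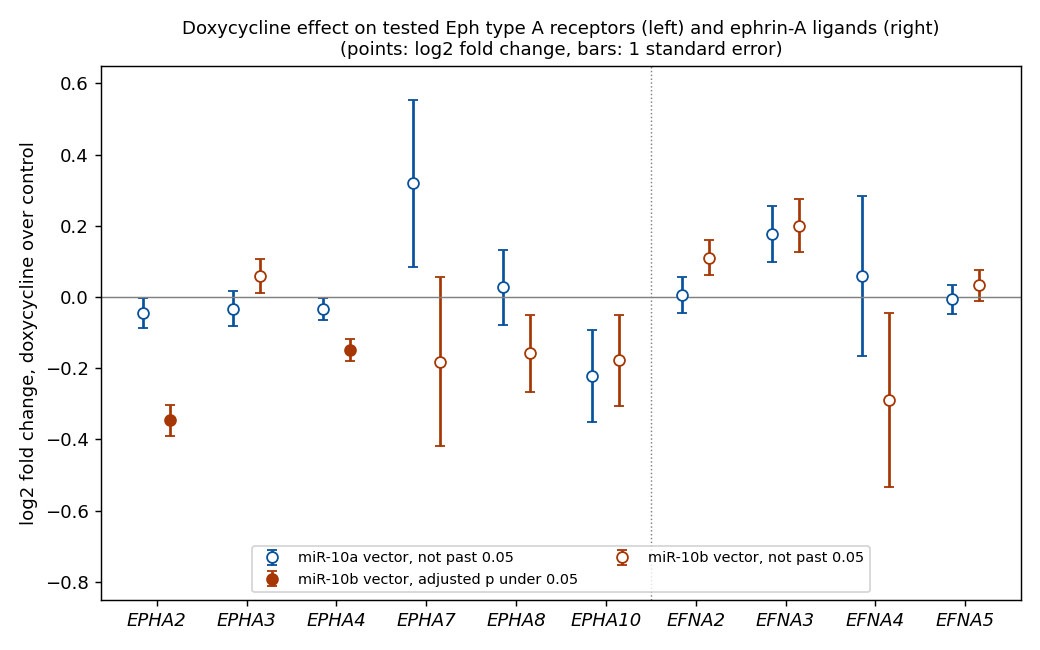
The vertical axis is the log2 fold change of doxycycline over control for the 6 tested receptors and the 4 tested ephrin-A ligands, with bars of 1 standard error, blue for the miR-10a vector and red for the miR-10b vector. Filled points have an edgeR adjusted p under 0.05. Only EPHA2 (-0.35) and EPHA4 (-0.15) with miR-10b are filled.

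With miR-10a, none of the tested receptors was called. The edgeR test gave 0 of 6, with 0 at an unadjusted p under 0.05, and DESeq2 also gave 0. Of all tested genes, 1.21% were called. EPHA2 had 120.7, 122.0 and 125.2 CPM in the controls and 125.0, 117.6 and 114.3 CPM with doxycycline. The ranges overlapped, with a log2 fold change of -0.04 (95% interval -0.13 to 0.04, edgeR adjusted p = 0.783). EPHA4 had 420.1, 409.8 and 424.4 CPM without and 413.5, 405.8 and 406.0 CPM with doxycycline. These ranges also overlapped, with a log2 fold change of -0.03 (95% interval -0.10 to 0.03, edgeR adjusted p = 0.773). EPHA3 (-0.03), EPHA8 (0.03) and EPHA7 (0.32, standard error 0.235) were not called either. EPHA10 had 7.55, 6.99 and 7.53 CPM in the controls and 6.07, 6.04 and 6.83 CPM with doxycycline. Its groups did not overlap, which was the case, in this direction, for 7.75% of all tested genes, and its log2 fold change of -0.22 was not called (standard error 0.129, edgeR adjusted p = 0.552). The median of the 6 receptors was -0.03, beside 0.01 for all tested genes. The smallest p of an exact permutation test with 3 against 3 samples is 0.1.

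The response of EPHA2 differed between the vectors. The miR-10b effect minus the miR-10a effect was -0.30 on the log2 scale (standard error 0.0609, edgeR adjusted p = 0.00296), and it was the only one of the 6 receptors called in this comparison (1.96% of all tested genes were called, 1.38% as lower). Without replicate 2 of miR-10b dox it was still -0.30 (edgeR adjusted p = 0.00167). For EPHA4 the difference was -0.12 (standard error 0.0449, edgeR adjusted p = 0.217), so that its fall with miR-10b was not shown to differ from its value with miR-10a. The differences of the other tested receptors had adjusted p-values of 0.559 to 0.953 in the same edgeR test. COL1A1 (-0.65) and COL3A1 (-0.38), of 4 tested mesenchyme markers, were also more negative with miR-10b. So were SOX3 (-0.28), of 5 progenitor markers, and LIN28A (-0.19), of 2 pluripotency markers. MAP2 (0.21) and NEFL (0.18), of 4 neuron markers, were more positive, and 0 of 7 floor plate and midbrain markers were called. The part of these markers in the EPHA2 difference was not tested. The precursor counts also differed, with a mean of 2619 CPM for MIR10B against 723.7 CPM for MIR10A in the induced samples of their vectors. These are poly-A libraries, so that the counts do not measure the mature microRNAs. The part of this in the EPHA2 difference was not tested either.

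Averaged over both vectors, the same 6 receptors gave 2 calls, both lower, beside 13.9% of all tested genes called and 6.22% called lower. This average shares its samples with both comparisons above. EPHA2 fell by 0.20 (standard error 0.0304, edgeR adjusted p = 1.41e-05) and EPHA4 fell by 0.09 (standard error 0.0224, edgeR adjusted p = 0.00431). The EPHA2 average joins -0.35 with miR-10b and -0.04 with miR-10a, which differed, and so describes neither vector. The EPHA4 average joins -0.15 with miR-10b and -0.03, uncalled, with miR-10a. EPHA10 had a value as large as that of EPHA2, -0.20, with a standard error of 0.0906 and an edgeR adjusted p of 0.148. EPHA8 had -0.07, EPHA3 0.01 and EPHA7 0.07, all uncalled. Of 2 tested endothelial markers, KDR was higher in this comparison (0.84, edgeR adjusted p = 0.00397). The other was at -0.31 and uncalled, and DESeq2 called 0 of the 2. Of 4 tested neuron markers, MAP2 (0.18) and NEFL (0.07) were higher, and DESeq2 called 1 of the 4. CORIN (-0.53), of 7 tested floor plate and midbrain markers, and COL1A1 (-0.27), of 4 mesenchyme markers, were lower. So were SOX3 (-0.26) and NES (-0.09), of 5 progenitor markers, and LIN28A (-0.24), of 2 pluripotency markers. The part of these markers in the values of EPHA2 and EPHA4 was not tested.

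The cultures of the miR-10a and miR-10b vectors also differed without doxycycline. EPHA4 was lower by 13.6% in the miR-10b controls than in the miR-10a controls, at 361.0 ± 6.11 against 418.1 ± 7.48 CPM (SD, n = 3 each). Every miR-10b control was below every miR-10a control, as in 15.9% of all tested genes. The log2 difference was -0.21 (standard error 0.0314, edgeR adjusted p = 3.28e-06), beside -0.15 for miR-10b induction. EPHA3 was higher, with 84.8, 87.9 and 89.7 CPM in the miR-10b controls and 80.8, 76.7 and 77.6 CPM in the miR-10a controls, which did not overlap (14.2% of all tested genes in this direction), a log2 difference of 0.16 (standard error 0.0474, edgeR adjusted p = 0.0182). The EPHA3 call was lost when any of 4 samples was left out, with edgeR adjusted p = 0.0931 and 0.0676 without replicates 2 and 3 of miR-10a control and 0.0591 and 0.0917 without replicates 2 and 3 of miR-10b control. EPHA2 was at 114.0 against 122.6 CPM and was not called (-0.10, edgeR adjusted p = 0.0965). Thus 2 of 6 tested receptors were called, 1 in each direction, beside 14.1% of all tested genes, 7.41% higher and 6.72% lower. In the same comparison, 5 of 7 tested floor plate and midbrain markers were higher in the miR-10b controls, and the mesenchyme markers summed to 249.8 to 275.4 CPM against 102.7 to 105.9 CPM. Of the 5 tested progenitor markers 3 were higher and 2 lower, SOX1 (-1.23) and SOX3 (-0.76). Both tested pluripotency markers were lower, LIN28A (-0.44) and DPPA4 (-0.43), and that list summed to 1229 to 1258 CPM against 1643 to 1721 CPM. Of the hindbrain markers GBX2 was higher (0.52) and HOXA2 lower (-1.08), and of the neuron markers NEFL was higher (0.20). Vector and culture cannot be told apart here, and the part of the markers was not tested.

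Of the ephrin-A ligands, 4 of 5 were tested. EFNA3 and EFNA4 are neighbouring genes on chromosome 1 with a read-through transcript that shares exons with both. EFNA3 had 24.1, 26.4 and 23.1 CPM in the miR-10b controls and 28.5, 29.1 and 26.9 CPM with doxycycline. It had 22.0, 21.9 and 21.5 CPM in the miR-10a controls and 23.1, 23.7 and 27.3 CPM with doxycycline. Every doxycycline sample was above every control of its vector, as in 16.3% of tested genes with miR-10b and 10.5% with miR-10a. EFNA3 was not called with either vector alone (0.20, edgeR adjusted p = 0.0616, with miR-10b and 0.18, edgeR adjusted p = 0.366, with miR-10a). It was called on average over both, where 7.67% of all tested genes were called higher (0.19, standard error 0.0539, edgeR adjusted p = 0.0148). That call was lost with DESeq2 (adjusted p = 0.0572) and, in edgeR, without replicate 3 of miR-10a dox (adjusted p = 0.0717) or replicate 3 of miR-10b control (adjusted p = 0.0509). EFNA2 had 77.3, 77.8 and 71.4 CPM in the miR-10b controls and 81.7, 80.1 and 82.6 CPM with doxycycline, which did not overlap, and was not called (0.11, edgeR adjusted p = 0.134). EFNA5 was not called on induction of either microRNA (-0.01 and 0.03), but was lower in the miR-10b than in the miR-10a controls, at 129.0 ± 4.07 against 158.7 ± 6.34 CPM (-0.30, edgeR adjusted p = 7.79e-07). EFNA4, at 17 to 33 counts on the only transcript seen, had values of 0.06 and -0.29 with standard errors of 0.225 and 0.245. EFNA1 had 0 to 3 counts on the transcript used. With these changes the order of EPHA2 and EFNA5 per kilobase was not the same in all groups. EPHA2 was above EFNA5 in the miR-10b controls (28.8 ± 0.990 against 24.2 ± 0.762 CPM per kilobase, SD, n = 3) and below it in miR-10b dox (22.6 ± 0.628 against 24.7 ± 0.229), and the samples of the genes did not overlap in either group.

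Genes around the type A receptors gave calls in both directions. Of 8 EphB receptors and ephrin-B ligands, 7 were tested. With miR-10b, EFNB3 rose (log2 fold change 0.18, standard error 0.0373, edgeR adjusted p = 0.000503) and EFNB2 fell (-0.12, standard error 0.0326, edgeR adjusted p = 0.0106). Both are transmembrane ligands that EPHA4 can bind. EPHB3 was called only on average over both vectors (0.10, edgeR adjusted p = 0.0365). Of 36 genes listed as Eph signalling effectors, 28 were tested, and 3 rose and 3 fell with miR-10b, beside 8.18% and 7.15% of all tested genes. The falling ones were TIAM1 (-0.28, edgeR adjusted p = 2.93e-05), VAV3 (-0.24, edgeR adjusted p = 0.0362) and YES1 (-0.22, edgeR adjusted p = 0.000172), a Src family kinase. Among the rising ones were CBL (0.12, edgeR adjusted p = 0.0346), a ubiquitin ligase that marks receptors for degradation, and KALRN (0.28, edgeR adjusted p = 0.0366). EFNB3, TIAM1 and YES1 were called with miR-10b under all 18 alternatives, leaving out single samples included. EFNB2 was called under 15 of the 18 (largest adjusted p = 0.0521), CBL under 13 (0.156), VAV3 under 12 (0.114) and KALRN under 10 (0.141), and EPHB3 on average under 7 of 17 (0.136). The medians were 0.07 for the type B list and -0.04 for the effectors, beside 0.02 for all tested genes. With miR-10a the edgeR test called 0 of 7 and 0 of 28, with 1 and 2 at an unadjusted p under 0.05, and DESeq2 called 0 in both. The effect on YES1 differed between the vectors (-0.22, edgeR adjusted p = 0.0419), a call kept under 7 of 17 alternatives (largest adjusted p = 0.138), and no other of these genes was called for that difference.

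The receptors were also set beside all tested genes with the same kind of seed match. With miR-10b, 19.6% of the 240 genes with an 8mer were called lower, and 13.0% of the 1270 with a 7mer-m8 as the best match. The shares were 11.9% with a 7mer-A1, 8.06% with a 6mer and 5.97% of the 5493 without a match. Called higher were 5.0%, 7.56%, 9.21%, 11.0% and 8.28% of these classes, in the same order. EPHA2 had the 33rd lowest log2 fold change of the 240 genes with an 8mer, and EPHA4 and EPHA8 the 269th and 252nd lowest of the 1270 with a 7mer-m8. EPHA10 was 71st of 445 with a 7mer-A1. With miR-10a, 4.58% of the genes with an 8mer were called lower and 0.437% of those without a match. In that comparison EPHA10 was 27th of 445, EPHA4 445th and EPHA8 767th of 1270, and EPHA2 was 93rd of 240. EPHA2 is thus below the lower quartile of its class with miR-10b (-0.21) and within the middle of it with miR-10a. EPHA3 and EPHA7, whose searched 3′UTR holds no match, were uncalled with both vectors, and so were EPHA8 and EPHA10, which hold matches. The 3′UTR searched for EPHA7 is longer than its counted transcript.

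**Figure D4:**
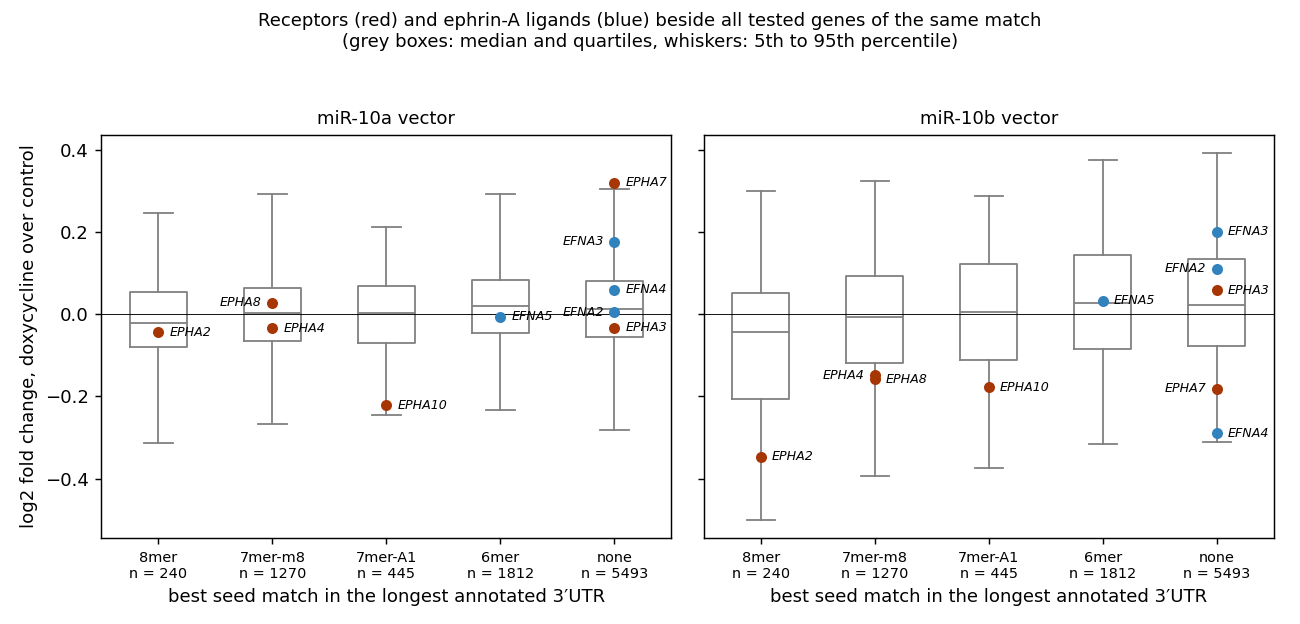
The vertical axis is the log2 fold change of doxycycline over control, and the columns are kinds of miR-10 seed match in the longest annotated 3′UTR, for the miR-10a vector on the left and the miR-10b vector on the right. Grey boxes give the median, quartiles and 5th to 95th percentile of all tested genes of that kind, red points the receptors and blue points the ephrin-A ligands. With miR-10b, EPHA2 (-0.35) lies below the box of the 240 genes with an 8mer. EPHA7 is placed by a 3′UTR longer than the transcript that was counted.

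The members under the count filter were compared by exact permutation tests, two-sided, on CPM. EPHA1 had 6, 3 and 0 counts in the miR-10a controls and 3, 2 and 3 with doxycycline, and 8, 10 and 5 counts in the miR-10b controls and 6, 7 and 6 with doxycycline (exact p = 1 and 0.6). EPHA5 had 4, 12 and 7 against 3, 6 and 3 counts with miR-10a and 17, 11 and 10 against 10, 9 and 7 with miR-10b (exact p = 0.2 and 0.5). EPHA6, a receptor found mainly in the nervous system, had 2 to 7 counts in the miR-10a samples and 3 to 10 in the miR-10b samples (exact p = 0.8 and 0.8). The groups overlapped in each of these comparisons, and with 3 against 3 samples this test cannot give a p below 0.1 at any depth.

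The 5 tested genes whose pattern over the 12 samples was most like that of EPHA4 were PHGDH, the first enzyme of serine synthesis, C9orf40, XPOT, which exports tRNA from the nucleus, MTHFD1, an enzyme of folate metabolism, and IVNS1ABP. Likeness was the root mean square difference of centred log2(CPM + 1), which was 0.0300 for PHGDH, 0.0329 for C9orf40, 0.0391 for XPOT, 0.0395 for MTHFD1 and 0.0411 for IVNS1ABP. EPHA4 itself ranged over 0.41 on this scale. The samples share their groups, so that this is a description of 12 points in 4 clusters.

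The calls of EPHA2 and EPHA4 with miR-10b did not rest on a single sample or scaling. Leaving out each of the 12 samples in turn gave log2 fold changes of -0.37 to -0.32 for EPHA2 and -0.17 to -0.13 for EPHA4, and the other 6 ways of processing gave -0.37 to -0.35 and -0.17 to -0.15. Both were called each time. With miR-10a neither gene was called under any of them.

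**Figure D5:**
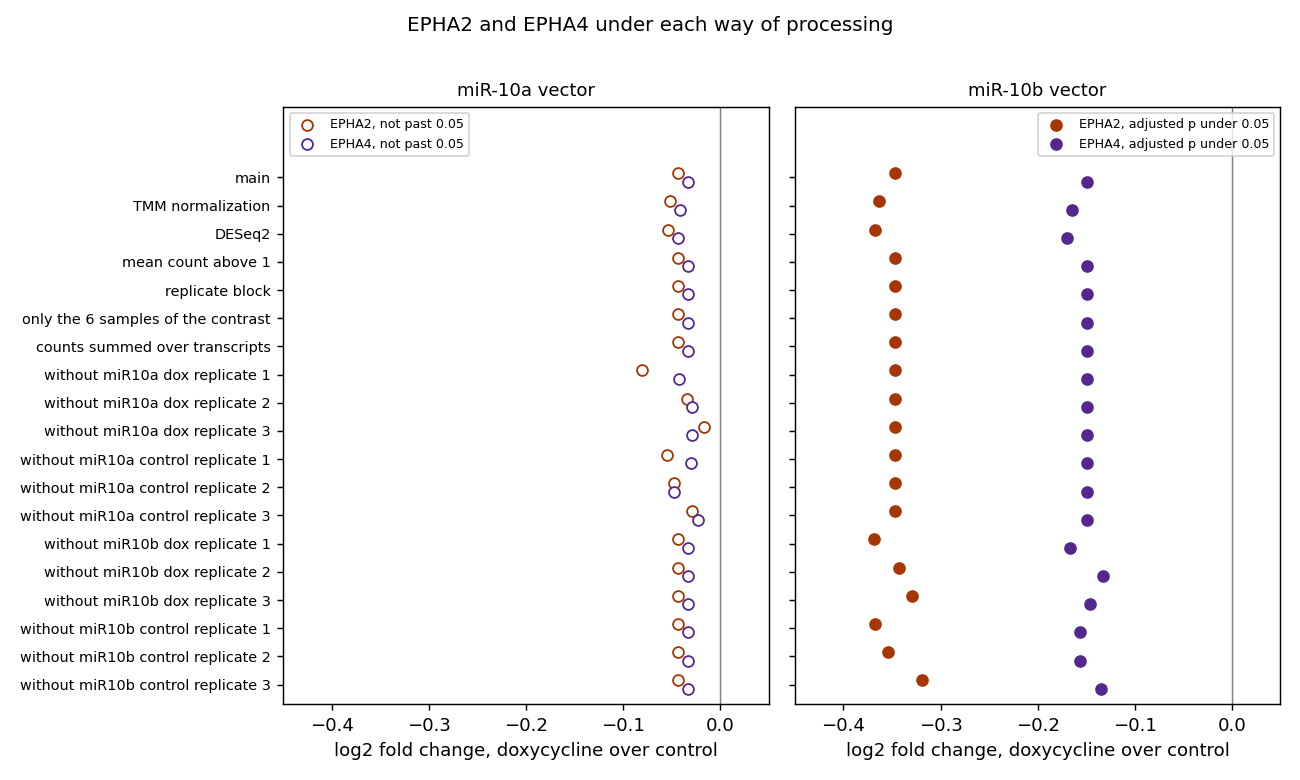
Each row is a way of processing the counts, including the fits without 1 sample, and the horizontal axis is the log2 fold change of doxycycline over control for EPHA2 (red) and EPHA4 (purple), with the miR-10a vector on the left and the miR-10b vector on the right. Filled points have an adjusted p under 0.05. All points of the miR-10b panel are filled, between -0.37 and -0.32 for EPHA2 and between -0.17 and -0.13 for EPHA4.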

How the data were processed

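The authors mapped 50-bp single-end reads to hg19 and deposited raw counts per RefSeq transcript, 1 file per sample, without normalization. The submitters' processing notes name STAR, Subread and featureCounts, and versions are not given in the sources used here. RNeasy Mini and NuGEN poly-A libraries are named in the methods, and other kits in the labels. Each file had 51799 rows, of which 3698 repeated a transcript and were dropped, leaving 48101. Groups and replicate numbers came from the sample titles. The test was edgeR 4.0.16 under R 4.3.3 (quasi-likelihood test, total count as library size, 4 group means in one fit, genes with a mean above 10 counts, Benjamini-Hochberg adjustment, threshold 0.05), after a test on simulated data. In the simulation 200 of 11451 genes were changed, alike in both vectors. In its miR-10b comparison, 50% of changes of 0.3 and 77% of changes of 0.6 on the log2 scale were recovered, over all count levels. In the data 1756 genes were called with miR-10b, so that these shares need not hold there. Alternatives were TMM factors, DESeq2 1.42.0, a mean above 1 count, a replicate block, only the 6 samples of a contrast, counts summed over transcripts, and leaving out each sample. The 95% intervals used the standard error and a normal distribution, and are therefore somewhat narrower than the quasi-likelihood test implies. Other steps used Python 3.11.15 and scipy 1.17.1. Named were all receptors and ephrin-A ligands, and of the other lists the 5 genes or fewer with the smallest p over both vectors among those called in a doxycycline comparison. Markers and EPHA4-like genes were named by fixed rules. The members and lists were chosen with earlier results of these data known.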

Additional observations from a re-analysis of the deposited data

Results flagged for a closer look

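The doxycycline effect on EPHA2 differed between the vectors by -0.30 on the log2 scale (miR-10b minus miR-10a, edgeR adjusted p = 0.00296), from -0.35 with miR-10b and -0.04 with miR-10a.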

How the results depend on the processing

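The count of receptors called was the same under all alternatives for both doxycycline comparisons, their average and their difference. In the comparison of the controls it was 1 or 2 when samples were left out in turn, against 2, with EPHA3 being the one lost. Over all tested genes, 139 were called with miR-10a, 275 with only the 6 samples of that vector in the fit, and 75 to 268 without 1 sample. Lower counts came without replicate 1 of miR-10a dox (75) and without replicates 1 and 3 of miR-10a control (84 and 81), and the highest without replicate 2 of miR-10b dox. For the difference between the vectors, 224 genes were called, 140 without replicate 2 of miR-10a control and 339 without replicate 3 of miR-10b dox. With DESeq2, 36 genes were higher and 93 lower with miR-10a, against 54 and 85 in the edgeR fit, 498 and 808 against 937 and 819 with miR-10b, 464 and 743 against 878 and 712 for the average, and 22 and 165 against 66 and 158 for the difference. TMM gave 665 and 852 for the average and 766 and 963 with miR-10b.

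No pairing by replicate number was seen. Deviations of samples with the same number correlated at -0.0317 to 0.00549 over 6 pairs, and those with different numbers at -0.0215 to 0.0445. Whether the cultures were paired is not described. With the number as a block, 1826 genes were called with miR-10b against 1756, EPHA2 was at -0.35 and EPHA4 at -0.15, and no call on a receptor or ephrin-A ligand changed.

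Uncalled values crossed 0 as follows. EFNA2 with miR-10a was at -0.0024 with TMM and -0.00465 with DESeq2, and the average was -0.00269 for EPHA3 and -0.0021 for EFNA5 with DESeq2. Without 1 sample, the miR-10a values ran from -0.0494 to 0.104 for EPHA8, -0.0197 to 0.0534 for EFNA2, -0.115 to 0.203 for EFNA4 and -0.0438 to 0.0299 for EFNA5. The averages ran from -0.00669 to 0.0379 for EPHA3, -0.0403 to 0.173 for EPHA7 and -0.00556 to 0.0313 for EFNA5. The differences ran from -0.0135 to 0.130 for EPHA10 and -0.0202 to 0.0987 for EFNA3. The control comparison ran from -0.0343 to 0.368 for EPHA7, -0.0669 to 0.0329 for EPHA10 and -0.310 to 0.0147 for EFNA4. EFNA3 with miR-10b was called without replicate 3 of miR-10b dox (0.23) or replicate 2 of miR-10b control (0.26). The causes were not tested. EPHA1, EPHA5, EPHA6, EPHA7 and EFNA4 had at most 34 counts per sample, which limits their precision. For all but EPHA1 these are counts on 1 of several transcripts.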
